A study of Mus musculus with 28 samples.

Results

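The genes described here are 38 genes of the cell cycle and of proliferation, taken by symbol from RNA sequencing tables of mouse kidney and of macrophages sorted from kidney. They comprise 11 genes of S phase and 27 genes of mitosis. All 38 were listed among the 10523 genes of the macrophage table. Of these, 31 were also listed among the 12315 genes measured in whole kidney, namely 10 of S phase and 21 of mitosis. Tk1, Ccnb1, Aurkb, Plk1, Melk, Bub1 and Ndc80 were not listed in kidney, so nothing is said of them there.

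The libraries came from 4 genotypes of female C57BL/6 littermates aged 7 to 9 months. Wild-type mice carried neither deletion. Rhbdf2-/- mice lacked Rhbdf2, the gene of iRhom2, a partner of the protease ADAM17, which sheds TNF and ligands of the EGF receptor. FcR2b-/- mice are a model of lupus nephritis and lacked Fcgr2b, which encodes an IgG receptor that restrains immune cells. The FcR2b-/- Rhbdf2-/- mice lacked both and are called double mutant here. The labels name no treatment and no cell type to which a deletion was limited. Whole kidney came from perfused mice, with 4 libraries per genotype. Macrophages were sorted as CD45+F4/80hiCD11b+Ly6G-Ly6C- cells, with 3 libraries per genotype. The labels do not say whether each library came from a separate mouse, so the tests measure the spread between these libraries, which may in part be technical.

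Each kidney library held 29015079 to 41615735 reads in listed genes and each macrophage library 30847654 to 34868250, as worked out from the values deposited. Kidney libraries of a genotype shared a sequencing lane that no other genotype used, and effects of lane cannot be told apart from those of genotype. Which part of a gene was deleted is not given, so whole-gene values do not check the labels. Rhbdf2 stood at 10.8 to 12.3 CPM, the count of a gene's reads scaled to library size, in Rhbdf2-/- kidney against 12.9 CPM in each wild-type library, and Fcgr2b at 256 to 382 CPM in FcR2b-/- macrophages against 539 to 715 CPM in wild-type. In kidney, Fcgr2b overlapped between the groups, at 23.4 to 34.2 CPM in FcR2b-/- and 29.3 to 35.8 CPM in wild-type. In the double mutant both genes overlapped wild-type. Fcgr2b was at 455 to 550 CPM in its macrophages, and Rhbdf2 at 9.29 to 19.7 CPM in its kidneys and 18.1 to 26.6 CPM in its macrophages, against 16.2 to 25.0 CPM in wild-type macrophages. The sorted cells held the macrophage markers in every group, with 16 of 17 listed, all but Adgre1, and a summed level of 36523 to 81888 CPM over all 12 libraries.

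A dividing cell first loads the MCM2-7 helicase onto its origins of replication, then copies its DNA in S phase with the sliding clamp PCNA and a supply of deoxynucleotides. Mitosis follows under cyclin B and Cdk1, helped by the Aurora and Polo-like kinases, and the spindle checkpoint holds the cell until every kinetochore is attached. Most of these genes are transcribed only in cycling cells, S phase genes under E2F factors and mitosis genes under the DREAM and MuvB complexes with B-Myb and FoxM1. The adult kidney holds few dividing cells, and its tubules are known to divide again after injury, while kidney macrophages can renew by division in place.

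The start regions of the genes are shown first, since S phase and mitosis genes are known to be controlled through different short motifs. The stretches come from RefSeq promoters on GRCm38.p6 and were taken for the 3 S phase and 3 mitosis genes with the smallest p in FcR2b-/- against wild-type kidney that held a searched motif, passing over Mcm7 and Pcna, where annotated exons left fewer than 100 bases, and Tyms, which held none of the motifs. Capitals mark the motifs searched on both strands: the cell cycle homology region (CHR, TTTGAA or TTTAAA), the CCAAT box, and the E2F motif (TTTCGCGC, TTCCCGCC, TTTGGCGC or TTTCCCGC). Each runs 5′ to 3′ on the gene's own strand and lies outside annotated exons.
Mcm3, chr1:20820313-20820562, minus strand: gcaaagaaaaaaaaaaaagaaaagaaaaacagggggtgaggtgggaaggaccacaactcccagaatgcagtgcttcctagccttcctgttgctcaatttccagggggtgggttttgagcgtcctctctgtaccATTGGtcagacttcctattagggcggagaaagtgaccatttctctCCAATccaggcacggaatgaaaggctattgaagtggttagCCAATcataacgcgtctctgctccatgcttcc
Rrm2, chr12:24708004-24708240, plus strand: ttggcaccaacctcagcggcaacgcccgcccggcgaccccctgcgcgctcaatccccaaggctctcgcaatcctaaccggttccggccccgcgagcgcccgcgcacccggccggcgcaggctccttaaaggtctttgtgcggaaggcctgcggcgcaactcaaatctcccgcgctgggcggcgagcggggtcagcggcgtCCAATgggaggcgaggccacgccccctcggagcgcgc
Mcm5, chr8:75109259-75109508, plus strand: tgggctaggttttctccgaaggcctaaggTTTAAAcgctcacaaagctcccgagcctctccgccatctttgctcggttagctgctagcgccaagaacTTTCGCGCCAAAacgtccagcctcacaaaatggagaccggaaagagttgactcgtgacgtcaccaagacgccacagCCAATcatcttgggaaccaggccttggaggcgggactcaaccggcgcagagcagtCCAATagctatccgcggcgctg
Cdk1, chr10:69352939-69353162, minus strand: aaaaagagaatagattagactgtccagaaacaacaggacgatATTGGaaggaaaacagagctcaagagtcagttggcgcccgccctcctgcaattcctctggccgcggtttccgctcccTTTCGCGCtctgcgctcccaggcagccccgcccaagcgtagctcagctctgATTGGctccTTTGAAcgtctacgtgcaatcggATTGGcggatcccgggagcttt
Ccnb2, chr9:70421555-70421804, minus strand: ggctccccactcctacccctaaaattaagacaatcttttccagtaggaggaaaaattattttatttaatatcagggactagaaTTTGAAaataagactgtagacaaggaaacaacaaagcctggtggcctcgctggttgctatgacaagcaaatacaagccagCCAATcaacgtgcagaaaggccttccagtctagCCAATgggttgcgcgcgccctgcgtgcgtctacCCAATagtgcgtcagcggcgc
Birc5, chr11:117848987-117849236, plus strand: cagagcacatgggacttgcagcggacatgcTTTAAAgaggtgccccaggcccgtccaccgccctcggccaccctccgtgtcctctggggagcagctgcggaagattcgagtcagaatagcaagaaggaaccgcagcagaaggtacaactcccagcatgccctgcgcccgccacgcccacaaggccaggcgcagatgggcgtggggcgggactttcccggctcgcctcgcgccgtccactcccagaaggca

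In the stretch of Cdk1 a CHR began 71 bases before the start, with CCAAT boxes at 80 and 48 bases and an E2F motif at 131 bases. Mcm5 held 2 overlapping E2F motifs, at 153 and 149 bases before the start. The stretch of Ccnb2 held 3 CCAAT boxes, at 87, 54 and 21 bases, and a CHR at 167 bases. Outside the stretches a further CHR began 15 bases before the start in Cdk1 and 4 bases after it in Ccnb2. Mcm3 held 3 CCAAT boxes and Rrm2 held 1, and neither held a CHR or an E2F motif in the stretch shown. Over whole RefSeq windows of 300 bases, which matched 32 of the 38 genes with 34 windows, 64.7% held a CHR, against 27.6% of all 32851 windows in the table. The share with a CHR was 78.3% of the mitosis windows and 36.4% of the S phase windows. The E2F motif was held by 45.5% of the S phase windows, 4.35% of the mitosis windows and 3.49% of all windows. A CCAAT box lay in 79.4% of the members' windows against 37.4% of all, and a CCAAT box together with a CHR in 69.6% of the mitosis windows against 10.7% of all. These are matches of letters, which say nothing of whether a factor was bound.

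Levels differed widely between the genes. Per kilobase of exon in wild-type kidney, Cks2 stood highest at 10.0 CPM, followed by Stmn1 at 9.92 and Pcna at 8.01, and Cenpf stood lowest at 0.0922. In FcR2b-/- macrophages the highest levels per kilobase were those of Stmn1 at 62.2 CPM, Hmgb2 at 38.1 and Mcm3 at 37.2. The heat map of all members shows each gene against its wild-type mean in the tissue.

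**Figure D1:**
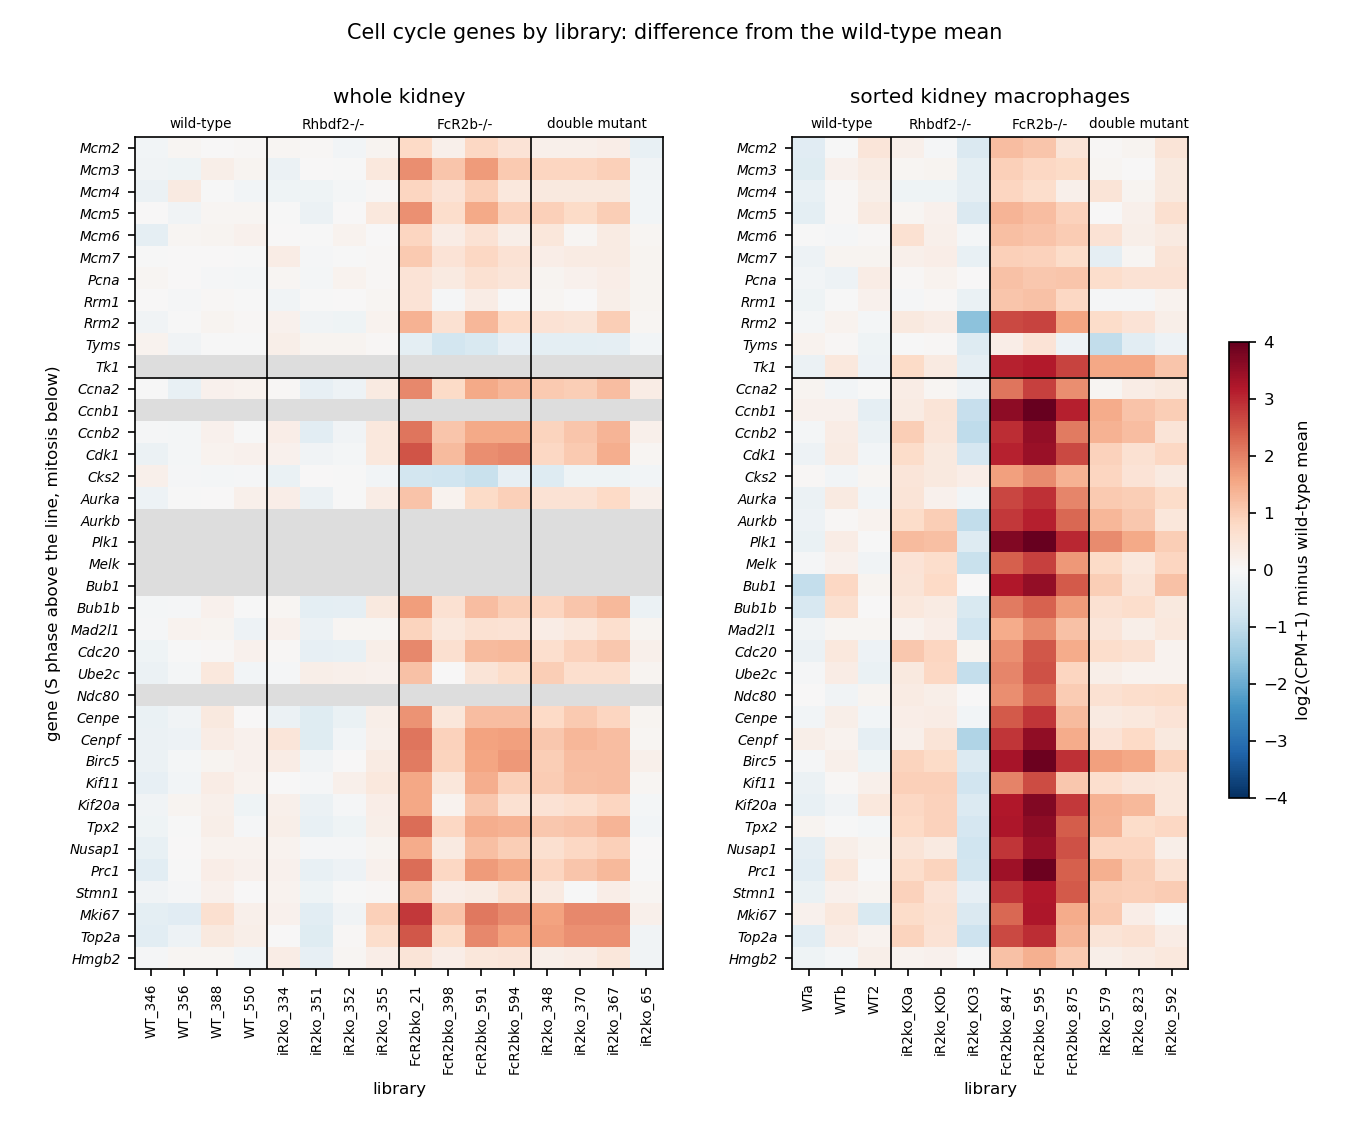
Heat map of log2(CPM+1) less the gene's wild-type mean in the tissue, with a row for each gene and a column for each library, grouped by genotype, for whole kidney and sorted macrophages. Most rows are high in the FcR2b-/- libraries of both tissues, the kidney rows of Tyms and Cks2 run the other way, and rows of the 7 genes not listed in kidney are grey there.

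In whole kidney, 28 of the 31 listed genes rose in FcR2b-/- against wild-type and 2 fell, while over all genes 29.5% were called higher and 30.8% lower (60.3% in either direction). The call rests on limma on log2(CPM+1) with Benjamini-Hochberg adjustment over all listed genes, and a gene was called at an adjusted p below 0.05. The median difference over the 31 genes was 1.04 on the log2 scale, beside -0.01 over all genes. It was 0.64 for the S phase genes and 1.17 for the mitosis genes. Groups did not overlap for 25 genes that were higher and for both that fell, against 25.3% and 26.4% of all genes. Scaled by plain library totals, which moved the median of all genes by 0.19, 43.7% of all genes were called higher and 17.3% lower, and 29 members rose and 2 fell. The authors' deposited table called 28 members higher and 2 lower, and 60.1% of all genes in either direction. In bulk samples, fewer cells of a type and less RNA per cell cannot be told apart.

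All 6 genes of the MCM2-7 helicase, which unwinds DNA ahead of the replication fork, rose in FcR2b-/- kidney. Mcm3 was read at 4.84, 4.74, 6.53 and 5.93 CPM in the wild-type libraries and at 22.7, 12.9, 20.2 and 12.4 CPM in the FcR2b-/- libraries. Every FcR2b-/- library lay above every wild-type library. Its mean went from 5.51 ± 0.867 to 17.1 ± 5.19 CPM (SD, n = 4), a difference of 1.44 ± 0.24 (log2, SE; limma adjusted p = 0.00016). Mcm5 differed by 1.24 ± 0.25, Mcm7 by 0.75 ± 0.11, Mcm4 by 0.69 ± 0.15, Mcm2 by 0.60 ± 0.14 and Mcm6 by 0.49 ± 0.14 on the same scale.

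The genes of the fork and of nucleotide supply did not move as one. Pcna, the sliding clamp of DNA polymerase, was at 18.3 to 20.5 CPM in wild-type and 24.7 to 30.1 CPM in FcR2b-/- kidney, with a difference of 0.50 ± 0.07 (log2, SE). Rrm2, the subunit of ribonucleotide reductase that is made in S phase, rose by 1.04 ± 0.19 (log2, SE). Rrm1, the larger subunit of the same enzyme, was at 24.2 to 25.8 CPM in wild-type and 24.1 to 36.4 CPM in FcR2b-/- and did not pass (limma adjusted p = 0.13). Tyms, which makes thymidylate, fell in the same kidneys. It was read at 24.0, 19.6, 21.2 and 21.3 CPM in wild-type and at 16.1, 12.5, 13.7 and 17.1 CPM in FcR2b-/-, with no overlap between groups and a difference of -0.51 ± 0.10 (log2, SE; limma adjusted p = 0.00037).

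Among the cyclins and their kinase, Cdk1, which drives entry into mitosis, showed the second largest difference of the listed genes in kidney. It stood at 0.913, 1.12, 1.46 and 1.51 CPM in wild-type and at 11.7, 4.44, 7.16 and 7.39 CPM in FcR2b-/-, so the groups lay far apart. The means were 1.25 ± 0.282 and 7.68 ± 3.02 CPM (SD, n = 4), and the difference was 1.89 ± 0.28 (log2, SE; limma adjusted p = 4.3e-05). Ccnb2, a cyclin of mitosis, differed by 1.57 ± 0.26, and Ccna2, the cyclin of S phase and early mitosis, by 1.38 ± 0.25. Cks2, a small protein that binds cyclin-dependent kinases, went the other way. Its levels were 8.02, 6.69, 6.47 and 6.60 CPM in wild-type against 3.73, 3.53, 3.28 and 5.32 CPM in FcR2b-/-, a difference of -0.69 ± 0.13 (log2, SE; limma adjusted p = 0.00037).

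**Figure D2:**
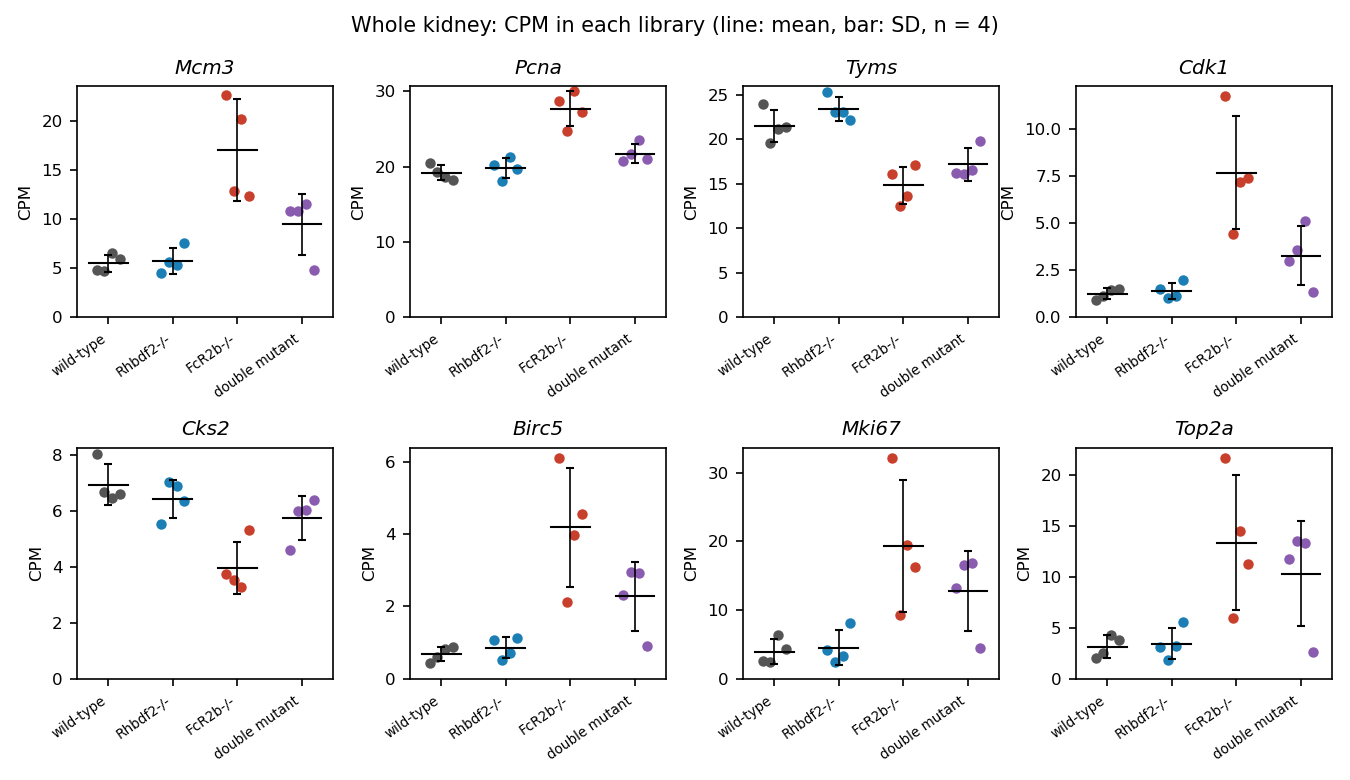
CPM of 8 genes in each of the 16 whole kidney libraries, with a point for each library, a line at the mean and a bar of 1 SD (n = 4). Tyms and Cks2 are lower in FcR2b-/- than in wild-type, the other 6 genes are higher, and 1 double mutant point lies near wild-type in most panels.

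The mitosis genes of the checkpoint, the anaphase-promoting complex, the kinetochore and the spindle all rose in FcR2b-/- kidney. Bub1b and Mad2l1, parts of the spindle checkpoint, differed by 1.12 ± 0.30 and 0.62 ± 0.14 (log2, SE). Cdc20, which activates the anaphase-promoting complex, differed by 1.28 ± 0.24, and Ube2c, its ubiquitin-conjugating enzyme, by 0.60 ± 0.23. Birc5, or survivin, a subunit of the chromosomal passenger complex, stood at 0.441, 0.606, 0.830 and 0.872 CPM in wild-type and at 6.11, 2.12, 3.98 and 4.54 CPM in FcR2b-/-. That is a ratio of mean CPM of 6.09 with no overlap between the groups, and a difference of 1.57 ± 0.26 (log2, SE; limma adjusted p = 0.00013).

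Cenpf and Cenpe, proteins of the outer kinetochore, differed by 1.58 ± 0.30 and 1.17 ± 0.27 (log2, SE). Of the spindle genes, Prc1, which bundles microtubules between the separating chromosomes, differed by 1.58 ± 0.30, Tpx2, the activator of Aurora A, by 1.48 ± 0.31, the motor Kif11 by 1.11 ± 0.27, Nusap1 by 1.01 ± 0.23, the motor Kif20a by 0.84 ± 0.27 and the microtubule-destabilising Stmn1 by 0.61 ± 0.16. Aurka, the Aurora A kinase of the spindle poles, differed by 0.75 ± 0.21, and its lowest FcR2b-/- library, at 1.75 CPM, lay below the highest wild-type library, at 1.90 CPM.

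Mki67, the gene of the Ki-67 antigen that marks cycling cells, gave the largest difference of the listed genes in kidney. It was read at 2.57, 2.43, 6.38 and 4.40 CPM in wild-type and at 32.1, 9.29, 19.5 and 16.3 CPM in FcR2b-/-, a difference of 1.99 ± 0.43 (log2, SE; limma adjusted p = 0.0011). Top2a, the topoisomerase that untangles chromosomes, differed by 1.70 ± 0.43, and Hmgb2, a chromatin protein, by 0.44 ± 0.14. The libraries of the FcR2b-/- group were far from alike. Over the 21 mitosis genes the mean of log2(CPM+1) was 2.29 in library FcR2bko_398 and 3.40 in library FcR2bko_21, against 1.55 to 1.95 in wild-type. Without FcR2bko_21, Ube2c and Kif20a no longer passed and 28 of the 31 genes did, with 56.2% of all genes called. Ube2c lost its call in 5 of the 16 fits without 1 library, and with only the compared groups fitted. Kif20a lost its call in 1 of the 16.

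Exons of other genes overlap some of these, and the sources used here do not say whether counting used the strand. Kif20a shares 29.3% of its exon bases with Cdc23, Ube2c 22.8% with Tnnc2, Ccna2 12.5% with Exosc9 and Prc1 11.1% with Rccd1, all on the opposite strand, so the values of these 4 genes are uncertain. A further 7 members share a smaller part.

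The marker lists moved with the same comparison. Summed over the 15 listed of 17 symbols, macrophage markers were at 259 to 327 CPM in wild-type kidney. In FcR2b-/- kidney they were at 1255 to 3339 CPM, and all 15 rose. Adgre1 and Emr1 in that list name 1 gene, listed as Emr1. Summed over 12 genes, markers of injured tubule went from 3366 to 3813 CPM up to 9940 to 19213 CPM, and all 12 rose. Proximal tubule markers, 15 genes, were at 33917 to 37872 CPM in wild-type and 8523 to 17260 CPM in FcR2b-/-. Fibroblast and mesangium markers, 12 genes, went from 438 to 552 CPM up to 1417 to 2837 CPM. Markers of T and NK cells, of which 7 of 16 were listed, were at 7.72 to 11.8 CPM and 14.0 to 38.5 CPM, and 2 of the 7 rose, with Cd3d and Ncr1 among those not listed. Neutrophil and monocyte markers, 5 of 10 listed and without S100a8 or Ly6g, went from 20.7 to 26.5 CPM up to 59.4 to 127 CPM, and 4 of the 5 rose. B and plasma cell markers, with 5 of 12 symbols listed, lacked Ms4a1, and Jchain and Igj name 1 gene. Their sums were 189 to 269 CPM in wild-type and 305 to 1100.5 CPM in FcR2b-/-, and 2 of the 5 rose. The part of these in the rise of the cell cycle genes was not tested.

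In Rhbdf2-/- kidney none of the 31 genes passed against wild-type, and 0% of all genes did. No member reached an unadjusted p below 0.05 in limma, and the authors' deposited table also called 0 members. Differences ran from -0.19 to 0.14 on the log2 scale, with a median of 0.04. For 0 members did the groups not overlap, against 2.53% of all genes with higher and 3.2% with lower values. Mki67, for example, stood at 4.26, 2.49, 3.28 and 8.19 CPM in Rhbdf2-/- libraries, overlapping the wild-type range of 2.43 to 6.38 CPM.

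Double mutant kidney was next set against FcR2b-/- kidney, whose libraries also entered the comparison with wild-type. Between them, 10 of the 31 genes fell and 1 rose, while 22.8% of all genes were called lower and 22.5% higher (45.3% in either direction). The share of members called, 11 of 31, was thus below that of all genes. The median difference over the members was -0.44 on the log2 scale, beside 0.00 over all genes. The S phase genes made up 6 of the 10 that fell, out of 10 listed, and the mitosis genes 4 of 21. By plain library totals, with the median of all genes at -0.12, 14.6% of all genes were higher and 31.2% lower, and 11 members fell and 1 rose. The authors' deposited table called 8 members lower and 1 higher in this comparison, and 44.6% of all genes in either direction. Marker lists moved here too. Injured tubule markers fell for 11 of 12 genes, to a sum of 3372 to 6500 CPM, and fibroblast and mesangium markers for 8 of 12, to 314 to 1098 CPM. Macrophage markers fell for 3 of 15, to 475 to 2190 CPM, B and plasma cell markers for 2 of 5, and neutrophil and monocyte markers for 0 of 5, while proximal tubule markers rose for 11 of 15. Of the T and NK cell markers 0 of 7 passed, all 7 had a positive difference with a median of 0.80 on the log2 scale, and their sum was 10.8 to 114 CPM in the double mutant. The part of these lists in the result was not tested.

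Of the helicase, 4 genes fell in double mutant against FcR2b-/- kidney. Mcm3 stood at 10.8, 10.8, 11.5 and 4.84 CPM in the double mutant libraries, all below the lowest FcR2b-/- library at 12.4 CPM, a difference of -0.80 ± 0.24 (log2, SE; limma adjusted p = 0.015). Mcm2 differed by -0.50 ± 0.14, Mcm7 by -0.49 ± 0.11 and Mcm4 by -0.42 ± 0.15. Pcna, at 20.8 to 23.5 CPM in the double mutant, differed by -0.33 ± 0.07 with no overlap, and Rrm2 by -0.50 ± 0.19. Tyms was at 16.2, 16.1, 16.6 and 19.9 CPM and did not pass (0.20 ± 0.10, limma adjusted p = 0.1).

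Cdk1 fell from 4.44 to 11.7 CPM in FcR2b-/- to 2.99, 3.59, 5.13 and 1.34 CPM in the double mutant, so that 1 double mutant library lay above the lowest FcR2b-/- library. The difference was -1.04 ± 0.28 (log2, SE; limma adjusted p = 0.0066). Ccnb2 fell by 0.68 ± 0.26, Birc5 by 0.66 ± 0.26 and Stmn1 by 0.44 ± 0.16 on that scale. In the 16 fits without 1 library, Birc5 lost its call in 13, Ccnb2 in 10 and Stmn1 in 4. For Birc5 and Ccnb2 each wild-type library was among those libraries, and both calls were also lost with a pseudocount of 0.25 CPM. Cks2, the gene that was lower in FcR2b-/- kidney, was higher again in the double mutant, at 4.59, 6.00, 6.02 and 6.39 CPM, a difference of 0.45 ± 0.13 (log2, SE; limma adjusted p = 0.011).

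Several of the best known proliferation genes did not pass in that comparison. Mki67 was read at 13.3, 16.6, 16.9 and 4.41 CPM in the double mutant and 9.29 to 32.1 CPM in FcR2b-/- (-0.58 ± 0.43, log2, SE; limma adjusted p = 0.28). Top2a was at 11.8, 13.6, 13.4 and 2.64 CPM against 5.93 to 21.7 CPM (-0.41 ± 0.43; limma adjusted p = 0.46). For both genes 3 double mutant libraries lay within the FcR2b-/- range and the other below it. Prc1, with -0.76 ± 0.30, just missed the threshold (limma adjusted p = 0.051).

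The library below the range was iR2ko_65 in each case. Its mean log2(CPM+1) over the mitosis genes was 1.79, within the wild-type range of 1.55 to 1.95, while the other 3 double mutant libraries lay at 2.53 to 2.78. Its summed macrophage markers were 475 CPM against 1219 to 2190 CPM in those 3, and its injured tubule markers 3372 CPM against 4116 to 6500 CPM. Its T and NK cell markers summed to 10.8 CPM against 34.3, 65.9 and 114 CPM, its neutrophil and monocyte markers to 28.0 CPM against 84.2 to 98.9 CPM, and its fibroblast and mesangium markers to 314 CPM against 747 to 1098 CPM. The part of these in its low values was not tested. Without that library, 5 genes fell and 1 rose against FcR2b-/-, with 39.4% of all genes called. Mcm4, Rrm2, Ccnb2, Birc5 and Stmn1 no longer passed. Leaving out FcR2bko_398, the FcR2b-/- library with the lowest mitosis mean, 18 genes fell and 1 rose (45.9% of all genes called). Leaving out FcR2bko_21, 4 fell and 1 rose (40.7% of all genes called). With only the groups of the comparison in the fit, 3 genes passed, against 28.8% of all genes.

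**Figure D3:**
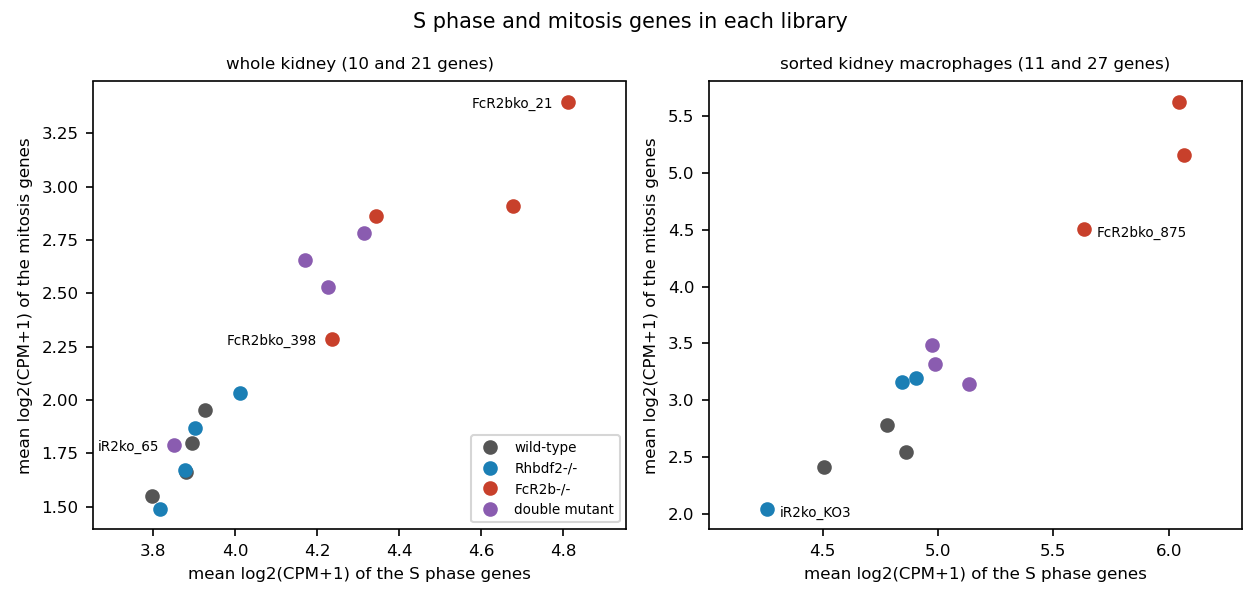
Mean log2(CPM+1) of the S phase genes (horizontal) and of the mitosis genes (vertical) in each library, coloured by genotype, for kidney and macrophages. In kidney the double mutant library iR2ko_65, at 3.85 and 1.79, lies among the wild-type and Rhbdf2-/- libraries, and in macrophages the 3 FcR2b-/- libraries lie apart from all others.

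Set against wild-type, double mutant kidney had 2 genes higher and none lower, with 4.52% of all genes called higher and 2.77% lower (7.29% in either direction). Those called were Ccna2, at 4.24, 4.00, 4.95 and 2.11 CPM against 1.06 to 1.83 CPM in wild-type (0.90 ± 0.25, log2, SE), and Birc5, at 2.32, 2.96, 2.91 and 0.913 CPM against 0.441 to 0.872 CPM (0.91 ± 0.26). Both calls were lost by plain library totals, which called 3.91% of all genes higher and 0.755% lower, and Ccna2 lost its call in 9 and Birc5 in 12 of the 16 fits without 1 library, each wild-type library among them. Groups did not overlap for 7 members that were higher and 1 that was lower, against 6.59% and 11.3% of all genes. The median over the 31 genes was 0.61, beside -0.03 over all genes. Without iR2ko_65, 19 genes were higher and 1 lower, with 13.9% of all genes called. The authors' deposited table called 10 members higher in that comparison, with 9.14% of all genes called in either direction. Limma called 2 of those 10.

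Set against Rhbdf2-/-, double mutant kidney had 1 gene lower and none higher, with 1.18% of all genes called lower and 2.32% higher (3.5% in either direction). That gene was Tyms, at 22.1 to 25.4 CPM in Rhbdf2-/- and 16.1 to 19.9 CPM in the double mutant (-0.43 ± 0.10, log2, SE; limma adjusted p = 0.035). It was the 1 member whose groups did not overlap, against 10.4% of all genes lower and 5.3% higher. The call was lost by plain library totals, which called 0.999% of all genes higher and 0.13% lower, and in 8 of the 16 fits without 1 library. Those libraries were WT_388, WT_550, iR2ko_334, iR2ko_351, iR2ko_352, iR2ko_348, iR2ko_370 and iR2ko_367. The median over the members was 0.57, beside -0.03 over all genes. Without iR2ko_65, 18 genes were higher and 1 lower, with 12.7% of all genes called.

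Whether the loss of Rhbdf2 acted differently with and without Fcgr2b was tested as an interaction, the double mutant minus FcR2b-/- difference less the Rhbdf2-/- minus wild-type difference. In kidney 3 genes were lower and 1 higher by that test, with 27.8% of all genes called, 13.9% each way. By plain library totals 9.61% were higher and 17.4% lower, and Cks2 did not pass. The values were -0.56 ± 0.15 for Mcm7, -0.38 ± 0.10 for Pcna, -1.13 ± 0.39 for Cdk1 and 0.55 ± 0.18 for Cks2 (log2, SE). Mcm7 and Pcna passed in all 16 fits without 1 library, whereas Cdk1 lost its call in 12 of them and Cks2 in 11, iR2ko_65 and FcR2bko_21 among the libraries for both. Cdk1 was also lost with limma-voom.

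Of the 38 genes in the sorted macrophages, 37 rose in FcR2b-/- against wild-type and none fell, while 24.2% of all genes were called higher and 28.5% lower (52.8% in either direction). The median difference over the 38 genes was 2.27 on the log2 scale, beside -0.09 over all genes. All 27 mitosis genes rose, with a median of 2.51, and 10 of the 11 S phase genes, with a median of 1.03. For 36 of the 37 the groups did not overlap, against 27% of all genes, and Mcm4 was the exception. The authors' deposited table called 37 members higher too, and 51.8% of all genes in either direction. Kidney and macrophage tables were normalized separately, so no test was run between the tissues.

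The 6 helicase genes rose by 0.58 to 1.17 on the log2 scale. Mcm3 was read at 53.4, 86.2 and 94.7 CPM in wild-type and at 148, 135 and 129 CPM in FcR2b-/- macrophages, a difference of 0.84 ± 0.20 (log2, SE; limma adjusted p = 0.0046). Pcna went from 22.1, 20.9 and 29.7 CPM to 55.4, 52.0 and 52.5 CPM (1.12 ± 0.13). Rrm1, which did not pass in kidney, rose from 49.1 to 63.3 CPM up to 98.4 to 126 CPM (1.03 ± 0.14), and Rrm2 rose by 2.31 ± 0.46. Tk1, the thymidine kinase made in S phase, gave the largest difference of the S phase genes. It stood at 0.673, 1.61 and 0.696 CPM in wild-type and at 15.5, 16.5 and 11.8 CPM in FcR2b-/- (2.99 ± 0.31, log2, SE; limma adjusted p = 2e-05). Tyms again stood apart from its group, at 40.3, 37.7 and 32.8 CPM against 44.7, 54.4 and 31.6 CPM, and did not pass (0.20 ± 0.23; limma adjusted p = 0.48).

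The largest differences were those of genes that act in mitosis itself. Plk1, the Polo-like kinase, was read at 1.49, 2.66 and 2.00 CPM in wild-type and 38.1, 57.4 and 23.5 CPM in FcR2b-/- macrophages. The groups lay far apart, with a ratio of mean CPM of 19.4 and a difference of 3.67 ± 0.45 (log2, SE; limma adjusted p = 6.3e-05). Ccnb1, cyclin B1, the partner of Cdk1, went from 2.54, 2.50 and 1.45 CPM to 36.3, 51.8 and 25.9 CPM, a ratio of 17.6 and a difference of 3.59 ± 0.36. Cdk1 itself went from 4.79, 7.32 and 5.14 CPM to 54.8, 71.6 and 40.2 CPM (3.05 ± 0.32). Ccnb2 differed by 2.84 ± 0.49, Ccna2 by 2.25 ± 0.28 and Cks2, which fell in kidney, by 1.65 ± 0.22.

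**Figure D4:**
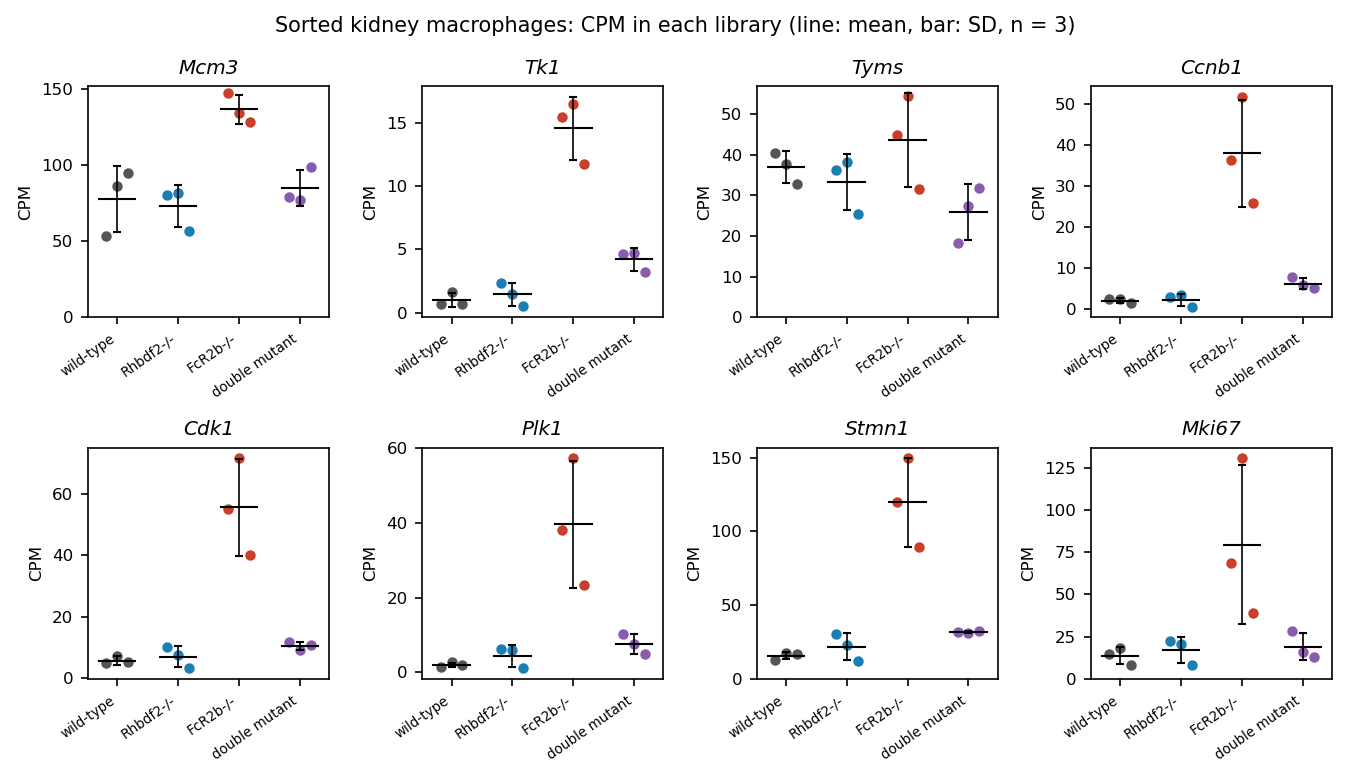
CPM of 8 genes in each of the 12 sorted macrophage libraries, with a point for each library, a line at the mean and a bar of 1 SD (n = 3). The FcR2b-/- points lie above those of all other groups in every panel except that of Tyms.

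Of the other kinases, Aurka differed by 2.51 ± 0.26, Aurkb, the kinase of the chromosomal passenger complex, by 2.74 ± 0.43, and Melk by 2.29 ± 0.38 (log2, SE). The checkpoint genes Bub1, Bub1b and Mad2l1 differed by 3.06 ± 0.41, 2.05 ± 0.32 and 1.51 ± 0.26, and Cdc20 and Ube2c by 1.93 ± 0.36 and 1.78 ± 0.46. At the kinetochore, Birc5 differed by 3.39 ± 0.36, Cenpf by 2.63 ± 0.50, Cenpe by 2.19 ± 0.31 and Ndc80, which binds spindle microtubules, by 1.73 ± 0.26.

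The spindle genes Kif20a, Prc1, Tpx2, Nusap1 and Stmn1 differed by 2.84 to 3.24 on the log2 scale, and Kif11 by 1.89 ± 0.45. Stmn1 stood at 12.8, 17.5 and 16.6 CPM in wild-type and 120, 150 and 89.1 CPM in FcR2b-/-, a difference of 2.84 ± 0.27 and the smallest p of the members (limma adjusted p = 1.4e-05). Mki67 went from 15.0, 18.1 and 8.29 CPM to 68.5, 131 and 39.0 CPM (2.34 ± 0.47), Top2a differed by 2.32 ± 0.44 and Hmgb2 by 1.21 ± 0.13. Within the FcR2b-/- group FcR2bko_875 was the lowest library for all of these mitosis genes that are given by library, and every such value still lay above the wild-type range.

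Loss of Rhbdf2 alone changed none of the 38 genes in macrophages by the test, as 0.019% of all genes passed. No member reached an unadjusted p below 0.05 in limma, and the authors' deposited table called 0. Differences ran from -0.31 to 0.68 on the log2 scale with a median of 0.15. Only for Cks2 did the groups not overlap (1 member higher, 0 lower), against 6.05% of all genes higher and 4.37% lower. The 3 Rhbdf2-/- libraries were spread, with a mean log2(CPM+1) over the mitosis genes of 2.05 in iR2ko_KO3 and up to 3.19 in the others, against 2.41 to 2.78 in wild-type.

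In double mutant against FcR2b-/- macrophages 36 of the 38 genes fell and none rose, while 13.8% of all genes were called lower and 15.8% higher (29.6% in either direction). The median difference was -1.61 on the log2 scale, beside 0.04 over all genes. All 27 mitosis genes fell, with a median of -1.85, and 9 of 11 S phase genes, with a median of -0.73. Groups did not overlap for 35 genes, against 20.5% of all genes. Mcm2, at -0.73 ± 0.27, and Mcm4, at -0.24 ± 0.18, did not pass. By plain library totals 11.8% of all genes were higher and 17.8% lower, and 37 members fell. The authors' deposited table also called 36 members lower, and 28.7% of all genes in either direction.

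Ccnb1 stood at 7.78, 5.92 and 5.14 CPM in the double mutant, against 25.9 to 51.8 CPM in FcR2b-/- macrophages, and differed by -2.38 ± 0.36 (log2, SE; limma adjusted p = 0.00083). Nusap1, a spindle protein, was at 9.51, 9.61 and 5.93 CPM against 33.0 to 63.4 CPM (-2.31 ± 0.35). Cdk1, at 11.8, 9.25 and 10.8 CPM against 40.2 to 71.6 CPM, differed by -2.25 ± 0.32. For each of these genes the highest double mutant library lay far below the lowest FcR2b-/- library.

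Plk1 at 10.3, 7.64 and 5.01 CPM differed by -2.19 ± 0.45, and Stmn1 at 31.9, 31.2 and 32.2 CPM by -1.85 ± 0.27 (log2, SE). Mki67 was at 28.2, 16.1 and 12.9 CPM in the double mutant and fell by 1.91 ± 0.47, where in kidney it did not pass. Of the S phase genes, Rrm2 differed by -1.81 ± 0.46, Tk1 by -1.59 ± 0.31, Rrm1 by -1.02 ± 0.14 and Pcna by -0.50 ± 0.13. Tyms, which did not pass between FcR2b-/- and wild-type, was at 18.3, 27.5 and 31.7 CPM in the double mutant and differed from FcR2b-/- by -0.73 ± 0.23. Those values lay below its wild-type range and, by a small margin, overlapped the FcR2b-/- range, which began at 31.6 CPM.

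**Figure D5:**
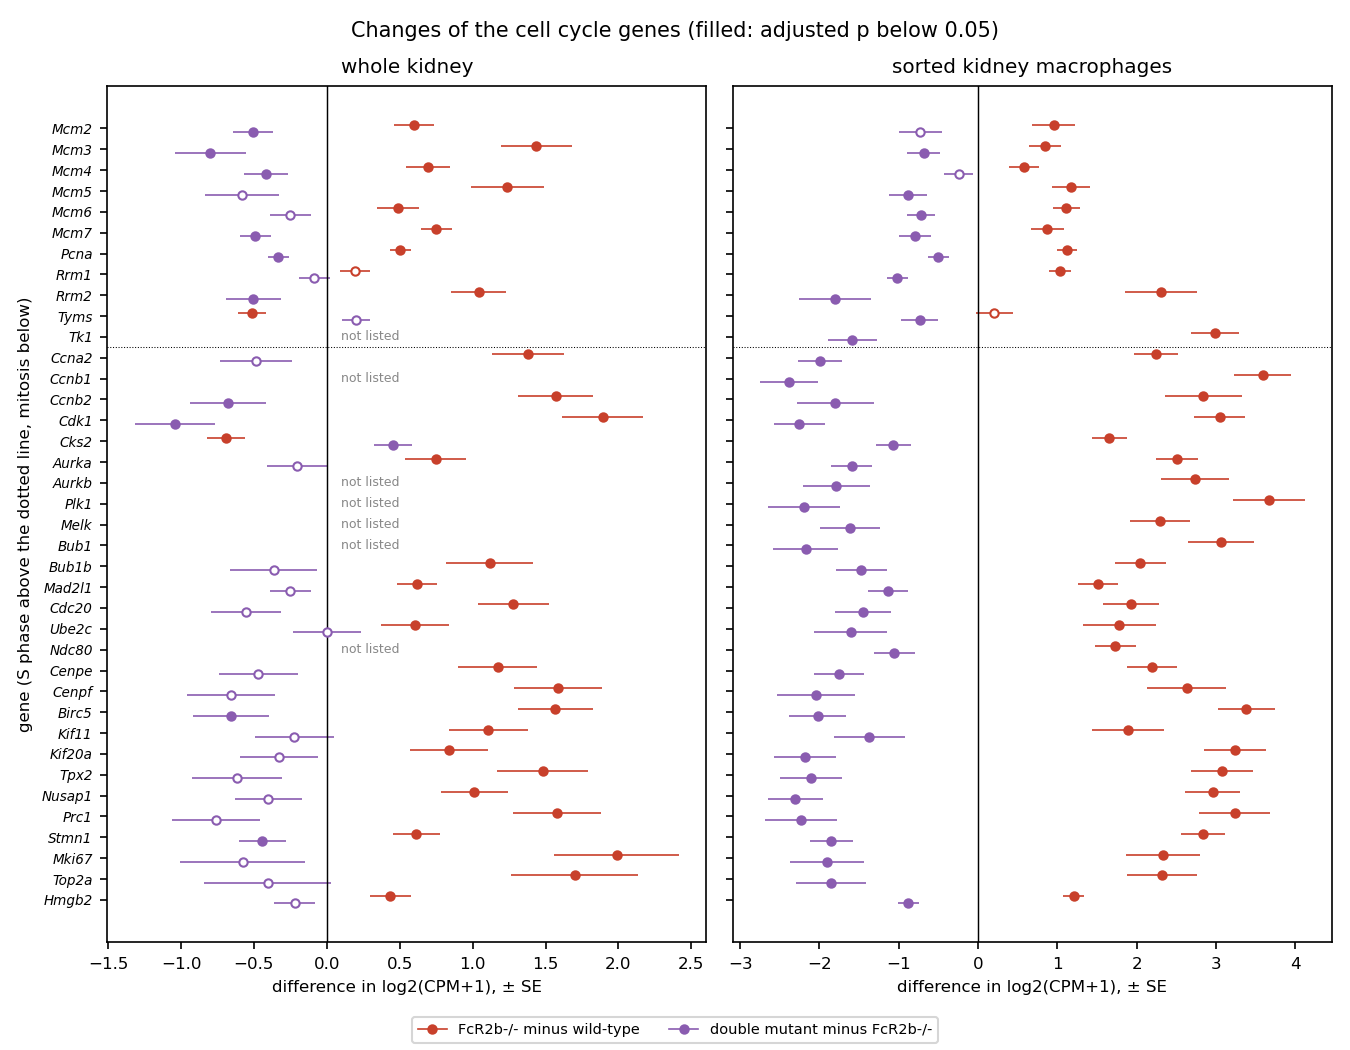
Difference in log2(CPM+1) with its SE for each gene, FcR2b-/- minus wild-type (red) and double mutant minus FcR2b-/- (purple), in kidney and in macrophages, with filled points where the adjusted p was below 0.05. In macrophages 37 red and 36 purple points are filled, and in kidney 30 and 11, with Cks2 on opposite sides in the tissues.

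In double mutant against wild-type macrophages 7 of the 38 genes were higher and none lower. Of all genes 9.88% were called higher and 8.58% lower (18.5% in either direction). The share of members called in either direction was thus near that of all genes. The 7 genes were Pcna (0.62 ± 0.13), Tk1 (1.40 ± 0.31), Ccnb1 (1.21 ± 0.36), Aurka (0.91 ± 0.26), Plk1 (1.47 ± 0.45), Birc5 (1.36 ± 0.36) and Stmn1 (0.99 ± 0.27), all log2 with SE. Tk1, for example, was at 4.67, 4.75 and 3.19 CPM in the double mutant, above all wild-type libraries. The median over the 38 genes was 0.58, beside -0.02 over all genes. By plain library totals, with the median of all genes at -0.18, only Pcna and Tk1 passed. In the 12 fits without 1 library, Tk1 lost its call without WTa, Pcna without WTa or WTb, and each of the other 5 in 4 to 6 fits. By library totals 5.53% of all genes were higher and 13.1% lower against 9.88% and 8.58% by the deposited scaling. Against Rhbdf2-/-, 4 genes were higher and none lower, with 18.2% of all genes called, 9.2% higher and 9.03% lower. By plain library totals those shares were 5.9% and 9.82%, with the median of all genes at -0.12, and Pcna alone passed. The 4 genes were Mcm4 (0.58 ± 0.18), Pcna (0.55 ± 0.13), Tk1 (1.15 ± 0.31) and Ccnb1 (1.23 ± 0.36). Without iR2ko_KO3, the Rhbdf2-/- library with the lowest mitosis mean, none of those 4 passed.

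By the interaction test 22 of the 38 genes were lower in macrophages and none higher, with 11.9% of all genes called. Those 22 were 19 of the 27 mitosis genes and 3 of the 11 S phase genes. The largest values were -2.84 ± 0.64 for Plk1, -2.62 ± 0.59 for Bub1 and -2.59 ± 0.56 for Kif20a (log2, SE). Mki67 and Top2a, at limma adjusted p values of 0.053 and 0.051, did not pass. Without iR2ko_KO3 31 genes passed, with 8.62% of all genes called, and without iR2ko_KOa 12 did, with 4.91% called. With limma-voom 11 passed, beside 9.98% of all genes, and Plk1 and Bub1 were not among them.

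Marker lists of macrophages and of other cells differed between groups in the sort too. The macrophage list summed to 63645 to 81888 CPM in FcR2b-/- libraries and 58467 to 65661 CPM in double mutants, above the 36523 to 50045 CPM of wild-type and the 41448 to 44976 CPM of Rhbdf2-/- libraries. T and NK cell markers, 13 of 16 listed, were at 298 to 397 CPM in wild-type, 53.3 to 110 CPM in FcR2b-/- and 282 to 617 CPM in the double mutant. Injured tubule markers, 7 of 12 listed and without Havcr1 or Krt20, went from 912 to 1788 CPM up to 8882 to 10660 CPM and back to 1026 to 1800 CPM. Fibroblast and mesangium markers went from 43.7 to 106 CPM up to 811 to 879 CPM and to 159 to 322 CPM. Only 4 of 12 were listed, namely Acta2, Tagln, Fn1 and Vim. B and plasma cell markers were lower in FcR2b-/- than in wild-type, at 166 to 200 against 315 to 710 CPM. So were other tubule markers, at 381 to 1015 against 1527 to 6893 CPM. Proximal tubule markers, at 341 to 1195 CPM in FcR2b-/-, overlapped the 828 to 2571 CPM of wild-type. These sums do not show which cells carried the genes. The part of these lists in the result was not tested.

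Further cell cycle genes were followed in 6 lists of 190 symbols in all, some of them older and newer names of the same gene. Other replication genes rose for 22 of the 35 listed and fell for 1 in FcR2b-/- kidney, and rose for 31 of 45 and fell for 2 in FcR2b-/- macrophages. Over all genes 29.5% were called higher and 30.8% lower in that kidney comparison, and 24.2% and 28.5% in macrophages. Chaf1b, a subunit of the chromatin assembly factor, differed by 1.85 ± 0.17 in FcR2b-/- kidney and by -1.24 ± 0.17 in the double mutant against FcR2b-/-. Other mitosis genes rose for 26 of 38 and fell for 4 in kidney, and rose for 57 of 68 and fell for 2 in macrophages. Anln, the anillin of the cleavage furrow, differed by 1.98 ± 0.20 in kidney and then by -1.22 ± 0.20 (log2, SE). Spc25, a kinetochore subunit, went the opposite way, from 45.6 CPM in wild-type kidney to 17.9 in FcR2b-/- and 36.5 in the double mutant, differences of -1.33 ± 0.13 and 1.02 ± 0.13.

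In double mutant against FcR2b-/-, other replication genes fell for 14 and rose for 2 of 35 in kidney and fell for 24 of 45 in macrophages. Other mitosis genes fell for 14 and rose for 4 of 38 in kidney and fell for 56 and rose for 1 of 68 in macrophages. Of all genes 22.8% were called lower and 22.5% higher in kidney, and 13.8% and 15.8% in macrophages. Cdca3, a regulator of mitotic entry, gave -2.70 ± 0.38 in macrophages. Pttg1, or securin, which holds back the separation of sister chromatids until anaphase, was the exception there at 0.77 ± 0.09.

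Genes that govern entry into the cycle were called in both directions. Of the G1 cyclins, kinases and E2F-RB genes, 5 rose and 5 fell of 17 in FcR2b-/- kidney, and 7 rose and 3 fell of 19 in macrophages. In kidney these shares are near those of all genes, 29.5% higher and 30.8% lower, and in macrophages 24.2% of all genes were higher and 28.5% lower. Cdk4, a G1 kinase, rose by 0.71 ± 0.07 in kidney, and Rbl2, the p130 protein of the DREAM complex, fell by 0.89 ± 0.14 (log2, SE). Ccnd1, cyclin D1, was at 160 to 226 CPM in wild-type and 136 to 280 CPM in FcR2b-/- kidney and did not pass, whereas in FcR2b-/- macrophages it fell from 47.3, 48.6 and 66.2 CPM to 22.1, 18.7 and 12.2 CPM (-1.58 ± 0.25). E2f1, a driver of S phase genes, rose in kidney by 0.96 ± 0.20 and did not pass in macrophages, at 27.0 ± 2.94 CPM in wild-type and 25.8 ± 4.43 CPM in FcR2b-/- (SD, n = 3).

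Of the transcription factor genes, Foxm1, the factor of mitosis genes, rose in both tissues, by 1.31 ± 0.23 in kidney and 1.54 ± 0.39 in macrophages, and fell in the double mutant against FcR2b-/-, by 0.77 ± 0.23 and 1.19 ± 0.39 (log2, SE). Myc went in opposite directions. In kidney it rose from 5.48 to 7.05 CPM up to 29.2 to 39.0 CPM (2.15 ± 0.22) and fell in the double mutant to 5.51 to 11.2 CPM (-1.76 ± 0.22). In macrophages it fell from 84.7, 110 and 113 CPM to 41.0, 41.6 and 30.3 CPM (-1.42 ± 0.26) and did not differ by the test between double mutant and FcR2b-/- (limma adjusted p = 0.49).

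Some genes that hold the cycle back also rose in FcR2b-/- mice. Cdkn1a, the p21 inhibitor of cyclin-dependent kinases, stood at 16.0, 21.5, 16.4 and 14.2 CPM in wild-type kidney, at 65.3, 88.5, 78.5 and 75.0 CPM in FcR2b-/- and at 25.1, 26.5, 25.8 and 48.0 CPM in the double mutant. The groups did not overlap in either comparison, with differences of 2.12 ± 0.23 and then -1.31 ± 0.23 (log2, SE). In macrophages it went from 34.0 to 49.5 CPM up to 187 to 244 CPM and down to 56.5 to 85.2 CPM (2.43 ± 0.23, then -1.53 ± 0.23). In library iR2ko_65, where the mitosis genes were lowest of the double mutants, Cdkn1a was highest of them.

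Of the CDK inhibitors, 3 of 6 rose in FcR2b-/- kidney and 3 of 4 in FcR2b-/- macrophages, where 1 fell. Of the p53 targets and growth arrest genes, 13 rose and 1 fell of 18 in kidney, and 6 rose and 2 fell of 17 in macrophages. The shares of all genes called higher in these comparisons were 29.5% and 24.2%. Btg2, an antiproliferative gene, differed by 1.37 ± 0.08, Gadd45a by 0.86 ± 0.08, Trp53 itself by 0.90 ± 0.10 and Plk2 by 1.09 ± 0.14 in FcR2b-/- kidney. In the double mutant against FcR2b-/-, 9 of these 18 fell in kidney and 1 of 17 in macrophages, with 22.8% and 13.8% of all genes called lower.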

How the data were processed

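Per the labels' protocols, libraries of polyadenylated RNA were made with a TruSeq kit for whole kidney and with SMART-Seq v4 for sorted macrophages, and read from 1 end on a HiSeq machine. Expression was deposited by the authors as log2 CPM of each library, per the file headers, with genes filtered beforehand. Per the file headers, the log2 fold changes, p-values and FDR are the authors' own. Exon length in bases is also a deposited column, and levels per kilobase are CPM divided by it. The submitters' processing notes name mm10 and GRCm38. The sources used here do not give the aligner, the counting program or the use of strand. Groups follow the genotype label, since titles of double mutants name only the Rhbdf2 knockout.

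CPM was the antilog of the deposited value. After removal of the prior count, low values were whole multiples of 1 read (100% whole within 0.1 read), which gave the reads per library. Depending on the library, 1 read equals 0.0226 to 0.0353 CPM in whole kidney, or 0.0277 to 0.0329 CPM in sorted cells. limma 3.58.1 (R 4.3.3, with trend) was run over every listed gene on log2(CPM+1), all 4 groups of a tissue in 1 fit, with Benjamini-Hochberg adjustment per comparison. This scale understates changes of low genes. SE values are limma's, and SD values are over libraries. No column of another sample was present (0), and no libraries were identical (0 pairs). The fit was also run on simulated reads with known changes, drawn with the same spread for every gene and no effect of lane. Such data say nothing of lane effects or of unlike libraries within a group.

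The 38 members and the further lists were chosen with earlier results of these data known. Any member could be named. Of each further list, the 4 called genes with the smallest p in FcR2b-/- against wild-type kidney, or in double mutant against FcR2b-/- of either tissue, could be named. Cdkn1a, Ccnd1, E2f1, Foxm1, Mybl2 and Myc could be named always, and no value of Mybl2 is given here. Promoter stretches were trimmed to bases outside GENCODE vM21 exons after that overlap was seen. Alternatives were other pseudocounts, a filter on low values, only the compared groups in the fit, limma-voom on the recovered reads, plain library totals, leaving out each library, and a shorter promoter window.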

Additional observations from a re-analysis of the deposited data

Results flagged for a closer look

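A library far from the rest of its group was found in 6 of 136 groups of 4 kidney libraries tested, and chance gives about 1 in 20. In 5 of the 6 it was the double mutant library iR2ko_65, with 12.5 CPM of Mcm2, 4.84 of Mcm3, 10.2 of Mcm4, 2.64 of Top2a and 19.9 of Tyms. The values for the MCM genes and Top2a were the lowest of the double mutants and that for Tyms the highest. The other was wild-type library WT_346, with 8.02 CPM of Cks2.

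The effect of losing Rhbdf2 differed between mice with and without Fcgr2b, by limma's interaction term, for 4 of 31 genes in kidney and 22 of 38 in macrophages, with 27.8% and 11.9% of all genes called. The kidney values, on the log2 scale, were -0.56 for Mcm7, -0.38 for Pcna, -1.13 for Cdk1 and 0.55 for Cks2. Cdk1 lost its call in 12 and Cks2 in 11 of the 16 fits without 1 library. In macrophages the S phase genes were Mcm6 at -0.97, Rrm1 at -0.92 and Tk1 at -1.84. The cyclins and kinases were Ccna2 at -2.05, Ccnb1 at -2.36, Cdk1 at -2.41, Cks2 at -1.46, Aurka at -1.79, Aurkb at -2.03 and Plk1 at -2.84. Genes of the checkpoint and kinetochore were Bub1 at -2.62, Bub1b at -1.52, Cdc20 at -2.13, Ndc80 at -1.25, Cenpe at -1.90 and Birc5 at -2.39. Those of the spindle and chromatin were Kif20a at -2.59, Tpx2 at -2.45, Nusap1 at -2.33, Prc1 at -2.51, Stmn1 at -2.22 and Hmgb2 at -0.98. In the 12 macrophage fits without 1 library, Ndc80 lost its call in 11 and Aurkb and Bub1b in 10 each. With limma-voom 11 of the 22 lost their call, Plk1 and Bub1 among them. Cks2 had interaction terms of opposite sign in the tissues, and the difference between tissues was not tested.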

How the results depend on the processing

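The rise of the members in FcR2b-/- stayed within 1.5 times the reported count under each alternative run, with 28 to 31 genes called in kidney and 35 to 37 in macrophages when single libraries were left out, and so did their fall in double mutant macrophages, with 30 to 37. In kidney the fall in the double mutant, 11 genes, became 3 with only the compared groups fitted, where 28.8% of all genes were called. It became 5 to 19 without single libraries, 5 without FcR2bko_21 (40.7% of all genes) and 19 without FcR2bko_398 (45.9%). Double mutant against Rhbdf2-/- kidney, 1 gene, gave 2 with a pseudocount of 0.25 CPM, 0 by plain library totals and 0 to 19 without single libraries. The counts without FcR2bko_21 (3), FcR2bko_398 (4) and iR2ko_65 (19) are Tyms, still lower, and further genes that were higher. Double mutant against wild-type kidney, 2 genes, gave 0 with a pseudocount of 4 CPM, with limma-voom and by plain library totals, and 0 to 20 without single libraries. The kidney interaction, 4 genes, gave 2 to 5 without single libraries. In macrophages, double mutant against Rhbdf2-/-, 4 genes, gave 1 with limma-voom (13.6% of all genes called), 1 by plain library totals (15.7%) and 0 to 5 without single libraries. Against wild-type, 7 genes became 3 with limma-voom (14.6% of all genes), 2 by plain library totals (18.6%) and 0 to 11 without single libraries. The macrophage interaction, 22 genes, gave 11 with limma-voom (9.98% of all genes). Without single libraries it gave 12 (4.91%) to 31 (8.62%). The cause of these shifts was not tested. A CHR lay in 35.3% of the members' windows cut to 150 bases, against 14.7% of all. With the letters a and b of 2 wild-type and 2 Rhbdf2-/- macrophage libraries as a replicate block, 0 members were called, as without it, and the deviations of these pairs correlated at 0.242 and -0.054. No paired analysis was possible for the other comparisons because their libraries share no replicate number. The planned count tests by other tools were not run, since the deposited unit is log2 CPM. Of methods for counts, only limma-voom was run, on the recovered reads.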
